A study of Homo sapiens with 12 samples.

Results

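The response of wild-type HepG2 cells to sorafenib was measured in 6 of the 12 libraries of the study, selected by the genotype and treatment given in their labels. In 3 of them the cells had received sorafenib at 5 µM for 48 h, and in the other 3 they had received DMSO, the vehicle, at 0.1% by volume. No duration is listed for DMSO. HepG2 is an established line from a human liver tumour, and none of these 6 libraries carries an engineered allele. The remaining 6 libraries came from HepG2 cells in which ARID1B, a subunit of the BAF chromatin remodelling complex, had been disrupted with CRISPR/Cas9 (ARID1B-KO), under the same treatments. They entered the fit for the estimate of the spread and served to test whether a response differed from that of wild type. The design text calls the 3 replicates of a group biological, and the labels do not say that they were separate cultures, so the p-values measure the spread between these libraries, which may be technical.

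Sorafenib is a kinase inhibitor used against liver cancer. It blocks RAF kinases, which pass signals from growth factor receptors through MEK to ERK, and several receptor kinases of blood vessel and stromal cells. Active ERK induces its own inhibitors (Sprouty and SPRED proteins, dual-specificity phosphatases) and ETS factors, stabilises MYC and promotes entry into the cell cycle. Through the FGF19 receptor complex the same cascade represses bile acid synthesis in hepatocytes.

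The 6 libraries held 21823650 to 29398257 estimated read counts, and 12821 genes passed the filter on low counts. On the first principal component of log2 CPM (counts scaled to a common library size), with 47.8% of the variance of these 6 libraries, the DMSO libraries lay between -37.4 and -33.9 and the sorafenib libraries between 32.3 and 37.3. All 10 hepatocyte markers examined were present, and their summed level was 49480 to 56090 TPM (the length-adjusted share of transcripts) with DMSO and 78200 to 80070 TPM with sorafenib. Of the 10, 6 were called higher and APOB and TTR lower (1 of these 2 without DMSO replicate 2 or 3 or sorafenib replicate 1 or 3). ALB held most of the sum, at 30870 to 33310 TPM with DMSO and 44200 to 44680 TPM with sorafenib. Of 9 blood cell markers, 3 (PTPRC, CD3E and HBB) were at 0 in these libraries, and the sum of the list, 4143 to 5139 TPM with DMSO and 967.5 to 1139 TPM with sorafenib, was almost entirely LYZ, the lysozyme gene, described below. Endothelial markers summed to at most 1.36 TPM in any library. Fibroblast markers summed to 25.9 to 31.5 TPM with DMSO and 49.8 to 54.7 TPM with sorafenib, with COL1A2 and DCN at 0. ACTA2 alone carried that difference, at 18.9 to 21.8 TPM against 46.3 to 53.5 TPM, and PDGFRB went the other way, at 4.42 to 7.62 TPM against 0.306 to 2.60 TPM. Cholangiocyte markers summed to 658 to 794 TPM with DMSO and 786 to 828 TPM with sorafenib. The part of these marker sums in the results below was not tested. In bulk RNA, fewer cells of a kind and less RNA per cell cannot be told apart.

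Sorafenib changed 4543 of the 12821 genes (35.4%) in wild-type cells at an adjusted p under 0.05 (edgeR quasi-likelihood test, Benjamini-Hochberg over all genes). Of these, 2239 (17.5% of the genes tested) were higher and 2304 (18%) were lower, so rises and falls were about equally frequent. Counts of called list members below are to be read beside these shares. Most changes were moderate: 475 genes were called higher and 356 lower by more than 2-fold, and 20 higher and 31 lower by more than 8-fold. The median log2 fold change was 0.60 among genes called higher, -0.54 among genes called lower and -0.01 over all genes tested. The 3 libraries of one treatment lay entirely above or below those of the other for 50.8% of the genes. Genes named below as changed kept their call and direction under all 14 alternative analyses except where a sentence names the exception.

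**Figure D1:**
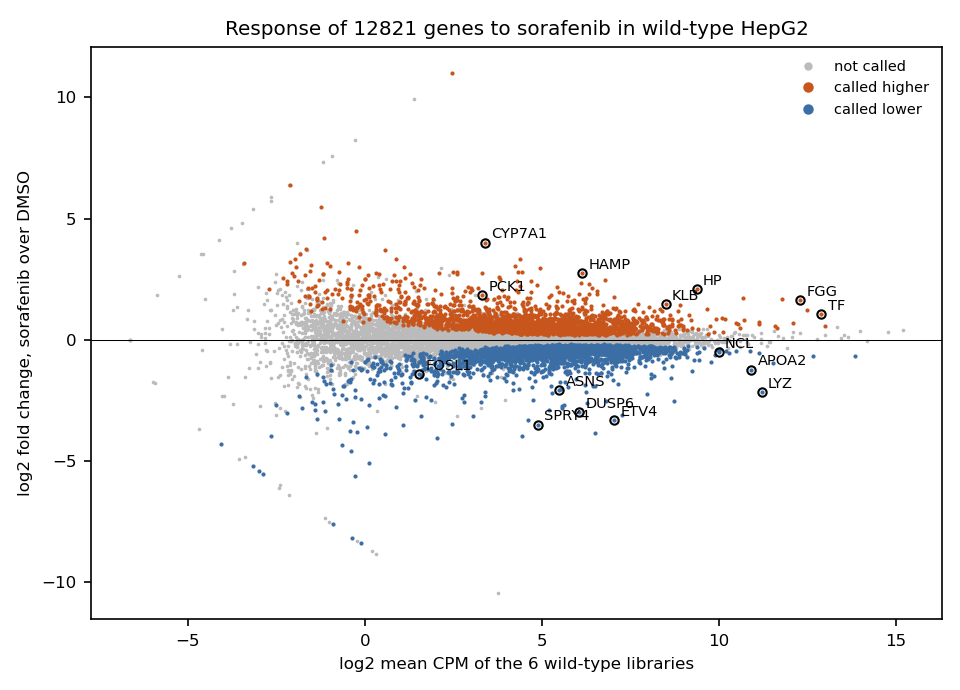
Log2 fold change (sorafenib over DMSO, vertical axis) against log2 mean CPM of the 6 wild-type libraries (horizontal axis), 1 point a gene, coloured by the edgeR call at an adjusted p under 0.05. The 2239 orange and 2304 blue points are the called genes, and among those labelled CYP7A1 lies high and SPRY4 low.

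Feedback inhibitors of the ERK cascade were more often called lower than higher. Of 18 tested feedback inhibitors of the cascade, 9 fell and 2 rose, with a median log2 fold change of -0.67 beside -0.01 over all genes. SPRY4, a Sprouty inhibitor of receptor signalling (GRCh38 chromosome 5, 142310427 to 142326455), had 41.6, 58.1 and 62.4 CPM under DMSO and 4.84, 4.59 and 4.86 CPM under sorafenib. DUSP6, a phosphatase that inactivates ERK (chromosome 12, 89347235 to 89352501), was counted at 126, 111 and 118 CPM without the drug and 17.1, 13.8 and 13.98 CPM in its presence. In both genes every sorafenib library lay below every DMSO library. The log2 fold changes were -3.50 ± 0.16 (SE) for SPRY4 and -2.98 ± 0.15 for DUSP6 (edgeR adjusted p = 1.35e-08 and 3.52e-08). SPRED1 (-1.55 ± 0.18), SPRED2 (-1.42 ± 0.08), SPRY1 (-1.12), ERRFI1 (-1.05), which inhibits EGFR, and SPRY2 (-0.99) fell as well. DUSP1, a phosphatase that acts more widely on stress kinases, and PEBP1, a RAF inhibitor protein, rose by 0.84 and 0.86. The RAS GTPase-activating genes NF1 (-0.13) and RASA1 (0.20) did not pass the test.

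Among 21 transcription factors and early genes linked to ERK, 6 fell and 3 rose, with a median of -0.13. The share called was 42.9%, beside 35.4% of all genes. The PEA3 group of ETS factors fell most. ETV4 (chromosome 17, 43527844 to 43579620) measured 230, 253 and 233 CPM in the DMSO libraries and 24.8, 24.4 and 23.3 CPM in the sorafenib libraries, and ETV5 (chromosome 3, 186046314 to 186110318) measured 81.9, 85.1 and 80.2 CPM against 11.2, 12.6 and 11.1 CPM. Spread within a treatment was small beside these differences. The receptor EPHA2 (-2.15 ± 0.16), the AP-1 member FOSL1 (-1.42 ± 0.20), the ETS factor ELK3 (-1.31) and MYC (-0.56 ± 0.09, edgeR adjusted p = 3.26e-04) fell. MYC had 137, 141 and 145 CPM under DMSO and 94.8, 89.0 and 104 CPM under sorafenib. The AP-1 members JUN (0.84) and JUND (0.67) rose, in the direction opposite to FOSL1. FOS (-0.61), EGR1 (-0.65) and ATF3 (-0.71) did not pass the test.

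Of 18 genes from RAS to ERK and its substrates, 3 rose and 3 fell, with a median of 0.08, a share called close to the 35.4% of all genes. With library totals alone 1 was called higher. MAPK3, which encodes ERK1, was counted at 48.3, 47.9 and 48.3 CPM without the drug and 84.6, 80.0 and 81.6 CPM in its presence, 0.77 ± 0.07 on the log2 scale (edgeR adjusted p = 4.18e-06). BRAF rose by 0.36 ± 0.09, a call lost with library totals alone as the scaling (edgeR adjusted p = 0.0692). PTPN11, the phosphatase SHP2 that acts upstream of RAS, fell by 0.41 ± 0.08 on the log2 scale.

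**Figure D2:**
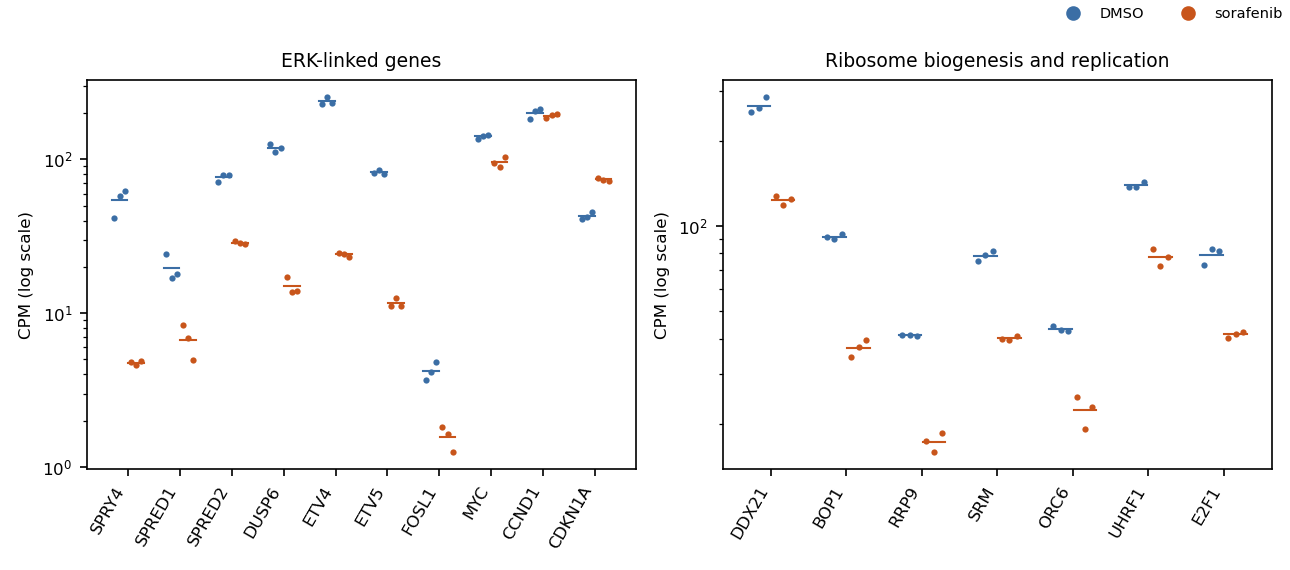
CPM on a log scale in each wild-type library, with DMSO in blue and sorafenib in orange (points, n = 3 libraries a group; bars, group means), for genes linked to ERK on the left and for ribosome biogenesis and replication genes on the right. The groups overlap only for CCND1, at 183 to 214 CPM with DMSO and 187 to 198 CPM with sorafenib.

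Receptors and growth factors changed one by one rather than as a group. Of 20 tested receptor tyrosine kinases, 5 rose and 4 fell (median 0.07), so 45% were called, beside 35.4% of all genes. Those called higher numbered 3 without DMSO replicate 1, without sorafenib replicate 2 or with the length offset. KDR, FLT1, FLT3, FLT4, PDGFRA, KIT and RET, which include receptors that sorafenib inhibits, were below the filter and were not tested. PDGFRB, a further target of the drug, measured 13.5, 17.9 and 21.6 CPM in the DMSO libraries and 2.94, 4.45 and 3.14 CPM in the sorafenib libraries, which gave -2.33 ± 0.27 on the log2 scale (edgeR adjusted p = 2.91e-05). With an offset for transcript length the edgeR call was lost (adjusted p = 0.0784). FGFR1 fell by 1.34 ± 0.15 on the log2 scale, and the TAM receptors diverged, with MERTK at 1.19 ± 0.18 and TYRO3 at -0.99. EPHA1 rose by 1.26 ± 0.18. EGFR (0.39 ± 0.18, edgeR adjusted p = 0.115) and ERBB3 (-0.39 ± 0.15, adjusted p = 0.0625) did not pass the test, though EGFR passed it in 3 and ERBB3 in 6 of the 14 alternatives. Of 11 ligands, 4 fell and 2 rose (2 and 1 with the length offset). GDF15, a stress-induced TGF-beta family hormone, had 183, 208 and 279 CPM under DMSO and 60.7, 71.3 and 58.3 CPM under sorafenib (-1.82 ± 0.19). TGFA, an EGFR ligand, fell by 0.66 ± 0.15 on the log2 scale. IGF2, the fetal growth factor abundant in this line, rose from 1306, 1188 and 1149 CPM to 2186, 2076 and 2057 CPM (0.79 ± 0.11).

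Genes of the entry to S phase were mostly called lower where they were called. Of 23 G1 regulators 9 fell and 2 rose (median -0.38), and of 36 DNA replication genes 24 fell and 2 rose (median -0.40). In these lists 47.8% and 72.2% were called, beside 35.4% of all genes. Without DMSO replicate 1 or 3 or sorafenib replicate 1 or 3, 1 replication gene was called higher. E2F1, a transcription factor of replication genes, was counted at 73.1, 82.8 and 82.0 CPM without the drug and 40.2, 41.7 and 42.4 CPM in its presence (-0.94 ± 0.09, edgeR adjusted p = 4.02e-06), and E2F3 (-1.08 ± 0.10) and the cyclin CCNE2 (-1.08 ± 0.21) fell too. CCND1, the D-type cyclin, overlapped between treatments (-0.06 ± 0.09, edgeR adjusted p = 0.648). CDKN1A, the CDK inhibitor p21, rose from 41.2, 41.9 and 45.2 CPM to 76.1, 73.7 and 72.3 CPM (0.79 ± 0.10). RRM2, which makes deoxynucleotides, fell from 255, 226 and 241 CPM to 117, 93.4 and 112 CPM (-1.16 ± 0.11), and CDC45 (-1.005), ORC6 (-0.95), UHRF1 (-0.84), CDC6 (-0.73) and MCM6 (-0.68) followed.

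Of 30 mitotic genes 10 fell and 1 rose, with a median of -0.21. The share called, 36.7%, was close to the 35.4% of all genes (18% called lower). Those called lower numbered 2 without sorafenib replicate 2, 4 without DMSO replicate 1, 4 without sorafenib replicate 3 and 5 with the length offset. The 1 call higher was lost without DMSO replicate 2 or 3 or sorafenib replicate 1 or 2. CDK1 had the largest fold change of the list, -0.58 ± 0.18 (edgeR adjusted p = 0.0239), and lost its call in 3 of the 14 alternatives, among them the fit of the 6 wild-type libraries alone (edgeR adjusted p up to 0.112 over the alternatives). MKI67 (-0.20), TOP2A (-0.04) and CCNB2 (0.01) did not pass the test. Replication-dependent histone genes have mRNAs that mostly lack poly(A) tails and are poorly captured by this library type. Of 15 tested, 6 were called higher and none lower (median 0.75, with 0 lower unadjusted in edgeR and 0 by DESeq2). The share called was 40%, and H3C10 (1.25 ± 0.20) and H2BC21 (1.18 ± 0.16) were among the 6. H2AC11 and H4C5, also among the 6, kept their calls in only 3 and 4 of the 14 alternatives.

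Of 28 targets of p53, 15 rose and 6 fell (median 0.32). The members that fell most were GDF15, given above, and PLK3 (-1.12 ± 0.18), a stress-activated kinase. BTG2 (1.13 ± 0.12), BBC3 (1.06 ± 0.14), which encodes the death factor PUMA, FDXR (0.85) and DDB2 (0.85) rose, and AEN (-0.52) and MDM2 (-0.33) fell. Within the BCL2 family of cell death regulators, 4 of 14 genes rose and 4 fell (2 fell without DMSO replicate 3, sorafenib replicate 2 or sorafenib replicate 3, and 2 rose with the length offset). BMF, a pro-apoptotic BH3-only gene (chromosome 15, 40087890 to 40108892), measured 6.71, 7.26 and 6.82 CPM in the DMSO libraries and 51.3, 52.5 and 58.9 CPM in the sorafenib libraries, a 7.83-fold rise (2.97 ± 0.10, edgeR adjusted p = 7.32e-10). BCL2L1, which encodes the survival protein BCL-XL, fell from 277, 272 and 299 CPM to 171, 162 and 185 CPM (-0.71 ± 0.08). BCL2 itself was low, at a mean of 0.844 CPM with DMSO and 0.201 CPM with sorafenib (-2.02 ± 0.57), a call lost without sorafenib replicate 2. BCL2L11, which encodes BIM and is a further BH3-only gene, had 0.38 and did not pass the test.

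Ribosome biogenesis was the list with the largest share of members changed in 1 direction. Of 36 tested genes of nucleolar ribosome assembly and of the MYC network, 32 fell and 2 rose, with a median of -0.71. DDX21, a nucleolar helicase, had 254, 261 and 284 CPM under DMSO and 128, 118 and 125 CPM under sorafenib (-1.11 ± 0.08, edgeR adjusted p = 4.92e-07). BOP1, an assembly factor of the large subunit, stood at 91.6, 89.7 and 93.9 CPM against 34.6, 37.3 and 39.6 CPM (-1.30 ± 0.08), and RRP9, a component of the U3 particle, at 41.2, 41.3 and 40.8 CPM against 17.4, 15.99 and 18.6 CPM (-1.25 ± 0.11). The treatments did not overlap for any of these genes. DKC1 (-0.998), NOLC1 (-0.91), NOP56 (-0.78) and NCL (-0.52) fell as well, and MXD4, a repressor that competes with MYC for its partner MAX, rose by 0.63. Of 43 ribosomal protein genes tested, none was called in either direction, and their log2 fold changes ran from -0.20 to 0.26 (median 0.04). At an unadjusted edgeR p under 0.05, 1 of the 43 was higher and 0 lower, and DESeq2, the fit of the 6 wild-type libraries and both replicate blocks each called 1 higher. All cytosolic ribosomal proteins together took 11.1% to 15.5% of TPM with DMSO and 10.7% to 13.6% with sorafenib, a spread between libraries of 1 treatment that was wider than the difference between treatments.

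Polyamine, proteasome and chaperone genes were called lower more often than higher. The shares called were 54.5% for polyamine, 51.7% for proteasome and 52.6% for heat shock and cytosolic chaperone genes, beside 35.4% of all genes. In the polyamine list 5 of 11 genes fell and 1 rose (0 with any library but DMSO replicate 1 left out), with ODC1, the first enzyme of polyamine synthesis, at 336, 330 and 325 CPM under DMSO against 162, 154 and 150 CPM under sorafenib (-1.09 ± 0.11). SRM (-0.97 ± 0.13) and AMD1 (-0.51 ± 0.08), which act after ODC1, fell, and so did SAT1 (-1.39 ± 0.12), which breaks polyamines down. Of 29 proteasome subunits 15 fell and none rose (median -0.33; also 0 higher at an unadjusted edgeR p under 0.05 and 0 by DESeq2), led by PSMD14 (-0.81 ± 0.13) and PSMD7 (-0.66 ± 0.08). That count was 9 without DMSO replicate 1 and 9 without sorafenib replicate 2. Of 19 heat shock and cytosolic chaperone genes 10 fell and none rose (median -0.40), with 1 higher at an unadjusted edgeR p under 0.05 and 1 by DESeq2. CHORDC1, a co-chaperone of HSP90, fell from 112, 99.6 and 92.2 CPM to 54.8, 48.9 and 48.1 CPM (-1.002 ± 0.11), and FKBP4 (-0.85 ± 0.08), CCT2 (-0.71 ± 0.11), a subunit of the TRiC chaperonin, and HSPH1 (-0.58) fell too. Of 24 genes of the endoplasmic reticulum 9 fell and none rose (median -0.26, with 0 higher unadjusted in edgeR and 0 by DESeq2). The share called, 37.5%, was close to the 35.4% of all genes (18% called lower). Only 3 of the list were called lower without sorafenib replicate 3 and 4 without DMSO replicate 3. DNAJB11 (-0.68 ± 0.12) and XBP1 (-0.47) were called under every alternative.

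Genes of the amino acid response were also called lower more often than higher. Of 37 tested targets of ATF4, the factor that induces amino acid synthesis and import, 19 fell and 6 rose, with a median of -0.48. Those called higher numbered 2 without sorafenib replicate 2, and 3 without DMSO replicate 1, without sorafenib replicate 3, with library totals alone or with the length offset. ASNS, asparagine synthetase, was counted at 61.9, 79.7 and 75.8 CPM without the drug and 19.1, 17.4 and 15.5 CPM in its presence (-2.07 ± 0.11, edgeR adjusted p = 4.87e-08). SLC7A11, the cystine importer, stood at 78.9, 91.3 and 85.2 CPM against 20.8, 25.6 and 18.9 CPM (-1.97 ± 0.14). The treatments were far apart in both genes. MTHFD2 (-1.51 ± 0.10) of mitochondrial folate metabolism, the glutamine importer SLC1A5 (-1.49 ± 0.18), the arginine importer SLC7A1 (-1.41), and the tRNA ligases GARS1 (-1.003) and MARS1 (-0.99) fell. DDIT3, which encodes the stress factor CHOP (0.42 ± 0.20, edgeR adjusted p = 0.122), TRIB3 (-0.17) and ATF4 (-0.34) did not pass the test, and NUPR1, a stress-induced gene of the same list, rose by 1.39 ± 0.22.

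Promoters were read for 4 genes whose lists fell together, each the called member with the largest fall among those of its list that hold the motif of the factor known for that list, except that MCM6 was taken for its number of matches. They are RefSeq sequences of GRCh38.p14 from 250 bases before to 50 bases after the start site, in the direction of transcription, with each match on either strand in capitals. The motifs were TGATGNAA (ATF4) in ASNS, CACGTG (the E-box read by MYC and other factors) in RRP9, TTTNNCGC (E2F) in MCM6 and GAANNTTC (heat shock factor) in CHORDC1. The promoters lie at chr7:97872359-97872658 (minus strand), chr3:51941855-51942154 (minus), chr2:135876394-135876693 (minus) and chr11:90223000-90223299 (minus).
ASNS: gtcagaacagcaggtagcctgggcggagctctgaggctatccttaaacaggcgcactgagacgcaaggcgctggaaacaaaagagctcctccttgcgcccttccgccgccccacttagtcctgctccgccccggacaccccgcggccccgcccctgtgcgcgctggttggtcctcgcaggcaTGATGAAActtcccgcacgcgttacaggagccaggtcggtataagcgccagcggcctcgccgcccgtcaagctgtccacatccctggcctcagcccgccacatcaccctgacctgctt
RRP9: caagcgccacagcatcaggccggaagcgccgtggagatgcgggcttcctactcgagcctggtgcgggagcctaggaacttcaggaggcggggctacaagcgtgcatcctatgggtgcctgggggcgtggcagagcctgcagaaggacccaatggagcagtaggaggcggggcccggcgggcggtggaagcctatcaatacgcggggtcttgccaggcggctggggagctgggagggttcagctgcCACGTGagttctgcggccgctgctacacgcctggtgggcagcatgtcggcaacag
MCM6: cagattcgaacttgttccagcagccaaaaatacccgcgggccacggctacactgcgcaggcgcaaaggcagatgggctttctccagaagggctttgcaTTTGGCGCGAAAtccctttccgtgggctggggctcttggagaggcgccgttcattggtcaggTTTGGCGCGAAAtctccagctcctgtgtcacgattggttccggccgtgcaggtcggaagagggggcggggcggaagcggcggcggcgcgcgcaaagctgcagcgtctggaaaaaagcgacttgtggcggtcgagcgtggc
CHORDC1: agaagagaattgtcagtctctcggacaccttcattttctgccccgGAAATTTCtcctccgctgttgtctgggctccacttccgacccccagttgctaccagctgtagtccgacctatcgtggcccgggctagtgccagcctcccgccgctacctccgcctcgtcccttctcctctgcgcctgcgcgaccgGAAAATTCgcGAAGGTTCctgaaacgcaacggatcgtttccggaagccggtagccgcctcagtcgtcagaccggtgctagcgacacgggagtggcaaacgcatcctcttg
The match in ASNS began 68 bases before the start site and that in RRP9 5 bases before it. MCM6 held 4 overlapping matches in 2 places, which begin 152 and 90 bases before the start, and CHORDC1 held 3 matches, at 205, 60 and 50 bases before it.

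The motifs were counted over all promoters of that length. Of 12821 genes tested, 9856 had a promoter in the RefSeq table. The E2F motif was in 20 of 32 promoters of DNA replication genes (62.5%), in 13.2% of the promoters of genes called lower, in 8.07% of those called higher, in 10.6% of all tested genes and in 6.9% of all 27305 promoters. The ATF4 motif was in 7 of 32 promoters of the amino acid response list (21.9%), beside 1.97% of genes called lower, 1.75% called higher, 1.65% of tested genes and 3.67% of all promoters. The E-box, which was added after values had been seen, was in 10 of 30 promoters of the ribosome biogenesis list (33.3%), 12.4% of genes called lower, 8.75% called higher, 10.2% of tested genes and 7.43% of all promoters. The heat shock motif was in 5 of 17 promoters of its list (29.4%), and in 4.96% of genes called lower, 3.9% called higher, 4.59% of tested genes and 6.87% of all promoters. CAAAGTCCA, an HNF4 motif, was in 12 of 1771 promoters called higher (0.678%), 3 of 1876 called lower (0.16%), 0.315% of tested genes and 0.359% of all promoters. TCACNCCAC, a sterol element, was in 1 of 19 promoters of the cholesterol list, SREBF2, and in 1.15% of all promoters, and GGAAGNGGA, a pair of ETS cores, was in 1 of 16 promoters of the ERK feedback list and in 5.19% of all promoters. A list made of known targets of a factor, as with ATF4, can be rich in its motif through its membership alone. These matches are letters found in a window and were not tested as binding sites.

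Bile acid synthesis held the largest rise among genes of the liver lists. CYP7A1, the rate-limiting enzyme, measured 1.16, 1.22 and 1.27 CPM in the DMSO libraries and 20.1, 19.9 and 19.2 CPM in the sorafenib libraries, a 16.1-fold rise (4.01 ± 0.20, edgeR adjusted p = 1.91e-08). NR0B2, which encodes SHP, the repressor of CYP7A1 induced by the bile acid receptor FXR, fell from 64.6, 65.7 and 61.0 CPM to 14.1, 14.7 and 13.1 CPM (-2.19 ± 0.09). SLC51B, a subunit of the bile acid exporter and also an FXR target, fell from 12.2, 12.8 and 10.5 CPM to 2.15, 1.67 and 2.18 CPM (-2.56 ± 0.17). KLB, the co-receptor of FGF19, rose from 176, 200 and 195 CPM to 517, 594 and 480 CPM (1.48 ± 0.17). The enzymes CYP8B1 (1.06), AKR1D1 (0.99) and CYP27A1 (0.84) rose, so that of 19 genes of the list 9 rose and 2 fell (median 0.42). FXR itself, NR1H4, was called higher (0.66 ± 0.12), though not with the length offset (edgeR adjusted p = 0.0957), and FGFR4, the FGF19 receptor, had 0.28 and did not pass the test. FGF19 was below the filter.

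Nuclear receptors and liver transcription factors were called higher more often than lower. Of 24 nuclear receptors 14 rose and 3 fell (median 0.52), with 9 called higher under the length offset. RXRA, the shared partner of many of them, rose from 69.8, 72.1 and 70.0 CPM to 137, 154 and 146 CPM (1.04 ± 0.10), and PPARA, the fatty acid receptor, from 29.02, 34.6 and 36.1 CPM to 62.2, 72.1 and 59.8 CPM (0.96 ± 0.12). The xenobiotic receptor PXR, NR1I2, rose by 0.87, whereas the related CAR, NR1I3, had 2.09 and did not pass the test. Of 21 liver transcription factors 9 rose and 3 fell (median 0.34). CREB3L3 (1.71 ± 0.12), CEBPA (0.91 ± 0.07), GATA6 (0.76 ± 0.17) and HNF4A (0.50 ± 0.09) rose, and ONECUT2 (-0.76) and CEBPB (-0.61), a relative of CEBPA linked to growth, fell.

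**Figure D3:**
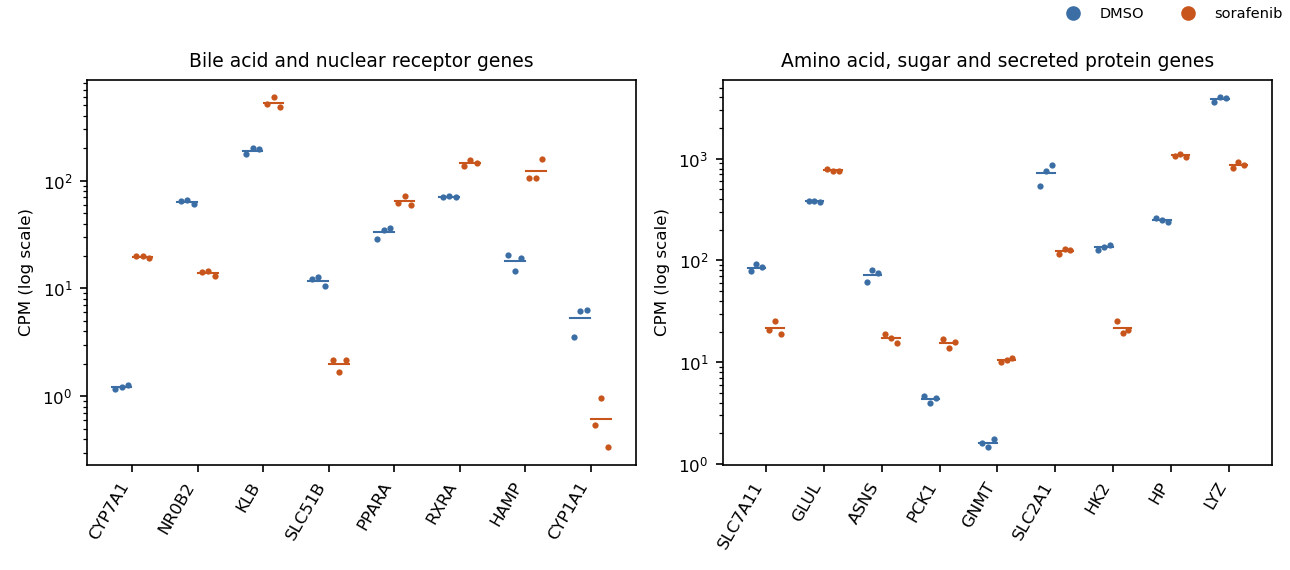
CPM on a log scale in each wild-type library, with DMSO in blue and sorafenib in orange (points, n = 3 libraries a group; bars, group means), for bile acid and nuclear receptor genes on the left and for amino acid, sugar and secreted protein genes on the right. The treatments do not overlap for any gene drawn, and genes of 1 pathway lie on both sides, as with CYP7A1 (higher) and NR0B2 (lower).

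Drug metabolism was split within families. Of 18 cytochrome P450 genes 6 rose and 3 fell (median 0.37), so 50% were called, beside 35.4% of all genes. With the length offset 1 fell. The common drug-oxidising genes CYP2C8, CYP2C19, CYP2B6, CYP1A2 and CYP2E1 were below the filter. CYP3A4, which metabolises sorafenib, had 1.34 and did not pass the test. CYP1A1, a target of the aryl hydrocarbon receptor, had 3.53, 6.23 and 6.37 CPM under DMSO and 0.538, 0.957 and 0.335 CPM under sorafenib (-3.15 ± 0.65, edgeR adjusted p = 0.00293). With the length offset its edgeR call was lost (adjusted p = 0.0535). CYP4F3 (1.48) and CYP4F12 (1.26) rose and CYP2J2 fell (-0.96). Among 30 conjugation enzymes 9 rose and 7 fell (53.3% called, beside 35.4% of all genes). GSTA2, an alpha-class glutathione transferase, rose from 4.07, 3.28 and 4.05 CPM to 36.6, 34.4 and 42.9 CPM (3.31 ± 0.13), and its neighbour GSTA1, a close paralog between which reads may be divided uncertainly, by 2.13 ± 0.14. The sulfotransferase SULT2A1 rose (1.36 ± 0.11), while the glucuronosyltransferases UGT2B11 (-1.45 ± 0.15), UGT2B4 (-0.85) and UGT2B7 (-0.47) fell. UGT1A9, which conjugates sorafenib, was below the filter.

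Of 24 transporters 12 rose and 4 fell (median 0.31), with 2 called lower without DMSO replicate 2 or 3, without sorafenib replicate 1 or 3, or with the length offset. SLC22A7, an organic anion transporter, rose from 3.42, 3.75 and 4.95 CPM to 29.2, 35.4 and 36.4 CPM (3.06 ± 0.19), and SLCO2B1 (2.18 ± 0.15), SLCO4C1 (1.45 ± 0.17) and ABCC6 (1.00) rose. The efflux pump ABCG2 fell (-1.19), and ABCB1, the multidrug pump, was called lower (-0.57, edgeR adjusted p = 0.0276) but not with the length offset, without the filter on low counts, or with any 1 of 4 libraries left out.

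Redox and metal genes moved in both directions. Of 27 targets of NRF2 and aldo-keto reductases 11 fell and 5 rose (6 fell under the length offset, and 8 rose with the replicate block of 6 libraries). AKR1B10 fell from 57.7, 70.4 and 67.5 CPM to 8.65, 7.61 and 9.96 CPM (-2.90 ± 0.13), TXNRD1 by 0.80, GCLM by 0.60 and NFE2L2, which encodes NRF2, by 0.69 on the log2 scale. HMOX1, haem oxygenase, rose from 21.7, 19.6 and 19.7 CPM to 53.6, 50.2 and 55.2 CPM (1.38 ± 0.09), and AKR1C1 (0.65) and AKR1C2 (0.81) rose with it. Of 24 ferroptosis genes, which control death by lipid peroxidation, 8 rose and 7 fell. Those called higher numbered 3 without DMSO replicate 2, 3 without sorafenib replicate 3, 5 with any other wild-type library left out or with library totals alone, and 4 with the length offset. Besides SLC7A11, the transferrin receptor TFRC (-0.72 ± 0.16) and ACSL4 (-0.55) fell. GPX4, which reduces lipid peroxides, was called higher (0.40 ± 0.14, edgeR adjusted p = 0.0399), a call lost in 7 of the 14 alternatives. Of 11 metallothionein and zinc genes, MT2A (-1.72 ± 0.26) and MT1X (-1.40 ± 0.30) fell, and SLC30A10, a manganese and zinc exporter, rose (1.12 ± 0.11). MT1G had -0.75 ± 0.42 and did not pass the test (edgeR adjusted p = 0.189).

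Of 21 iron genes 12 rose and 2 fell (median 0.40; 1 fell without DMSO replicate 3 or sorafenib replicate 2 or 3). HAMP, which encodes hepcidin, the hormone that lowers iron export (chromosome 19, 35280716 to 35285143), was counted at 20.3, 14.7 and 19.1 CPM without the drug and 105, 105 and 158 CPM in its presence (2.77 ± 0.23, edgeR adjusted p = 3.86e-06). The iron sensor TFR2 (1.32 ± 0.18) and TMPRSS6, a protease that restrains hepcidin (1.30 ± 0.18), rose. The BMP targets SMAD7 (0.62) and ID2 (1.23 ± 0.16) rose, whereas ID1 (-0.20) did not pass the test.

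Of 26 genes of cholesterol synthesis 21 were called higher and none lower (median 0.58), with 0 lower at an unadjusted edgeR p under 0.05, 0 by DESeq2 and 1 with the replicate block of 6 libraries. HMGCS1 measured 275, 274 and 237 CPM in the DMSO libraries and 568, 511 and 500 CPM in the sorafenib libraries (1.01 ± 0.10, edgeR adjusted p = 8.87e-06), and TM7SF2 (1.13 ± 0.16), MVK (1.00 ± 0.11) and MVD (0.84 ± 0.08) rose. Of 21 fatty acid and triglyceride genes 11 rose and none fell (median 0.52; 0 lower unadjusted in edgeR and 0 by DESeq2, but 1 with library totals alone and with each replicate block), led by ACSS2, which activates acetate, at 59.3, 63.0 and 54.4 CPM against 202, 209 and 194 CPM (1.77 ± 0.08), and by DGAT1 (1.18 ± 0.15) and DGAT2 (1.11 ± 0.15), which complete triglycerides. FASN (0.32) and the regulator SREBF1 (-0.11) did not pass the test. Genes of fatty acid breakdown rose as well: of 31 genes 24 were called higher and 1, VNN1, lower (median 0.55). ANGPTL4 (1.75 ± 0.26), ACSL1 (0.90), EHHADH (0.89) and SLC25A20 (0.78) rose.

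**Figure D4:**
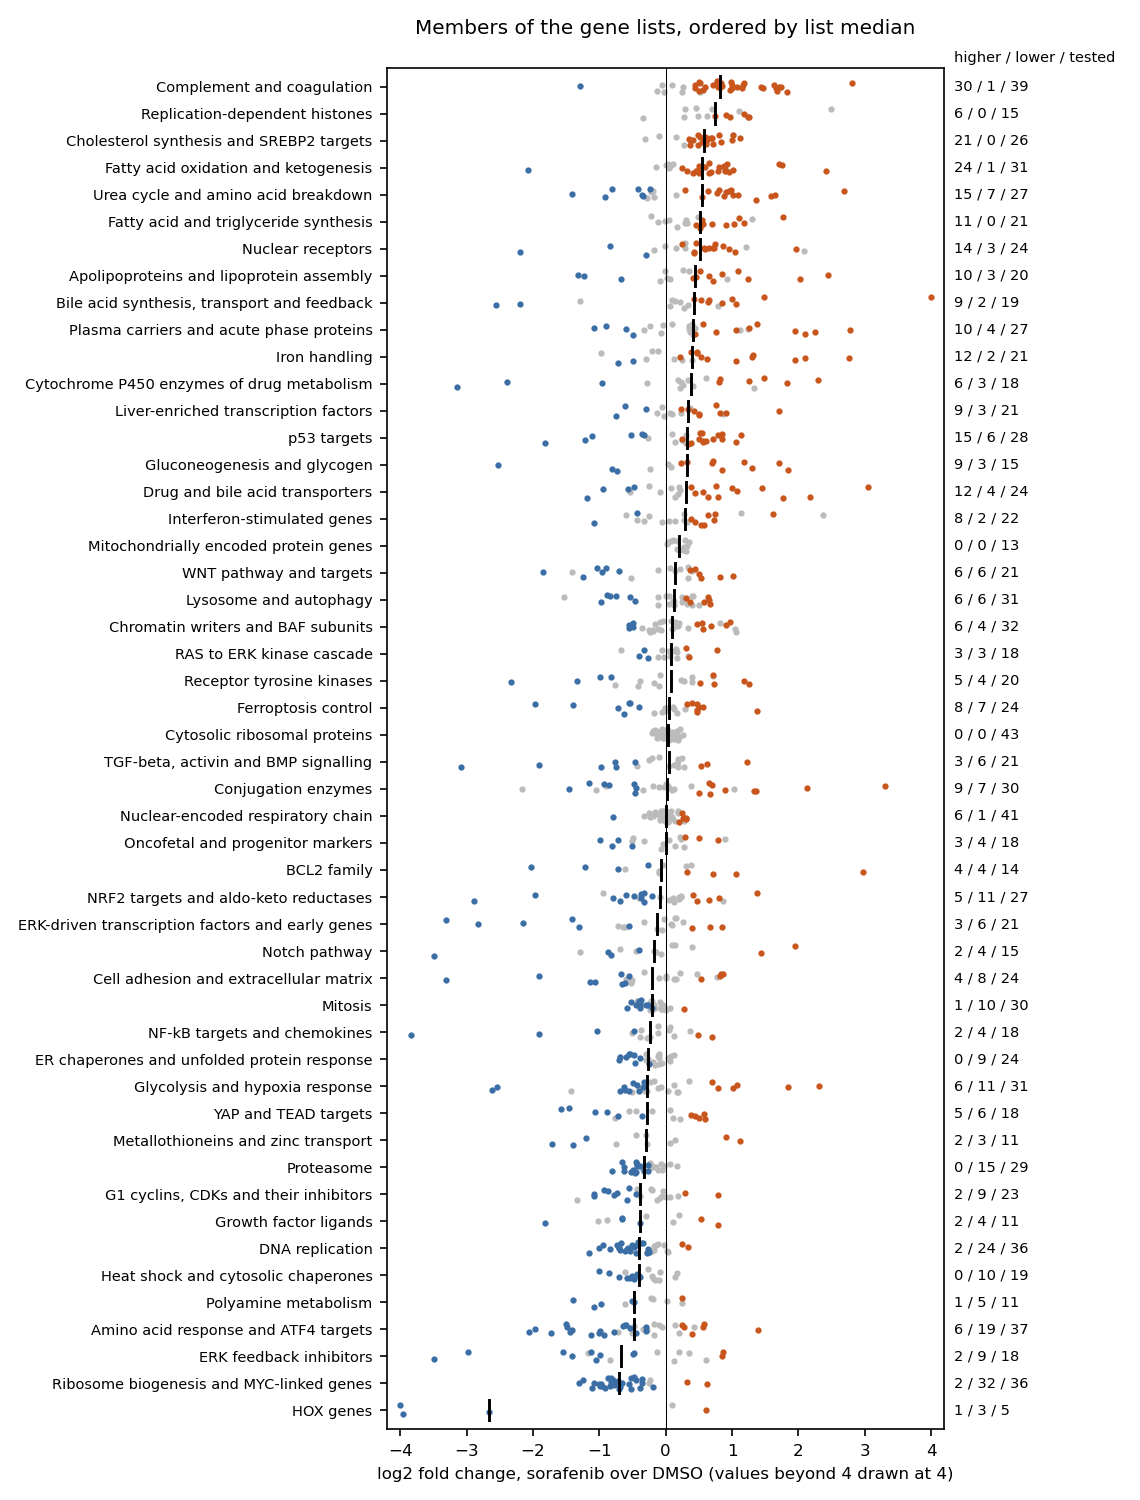
Log2 fold change (sorafenib over DMSO) of each tested member of the 50 gene lists other than cell type markers, ordered by the list median (black bar), with members called higher in orange, called lower in blue and not called in grey, and at the right the numbers called higher, called lower and tested. Ribosome biogenesis lies near the bottom with a median of -0.71 and complement and coagulation at the top with 0.82, while ribosomal proteins and mitochondrially encoded genes have no called member.

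Of 39 complement and coagulation genes 30 rose and 1, MASP1 (-1.29), fell, with a median of 0.82, and the 43 members present in the files took 1.14%, 1.30% and 1.41% of TPM with DMSO and 2.59%, 2.82% and 2.48% with sorafenib. The 3 fibrinogen chain genes on chromosome 4 moved together: FGG stood at 2724, 2890 and 2657 TPM against 8586, 8970 and 7906 TPM (1.64 ± 0.17), and FGA (1.66 ± 0.16) and FGB (1.71 ± 0.19) changed alike. KNG1, the kinin precursor, rose from 4.52, 5.95 and 5.73 CPM to 36.8, 39.4 and 37.2 CPM (2.81 ± 0.16). C6 (1.73), the C1 inhibitor SERPING1 (1.68) and antithrombin, SERPINC1 (1.16), rose. Prothrombin, F2, had -0.03 and did not pass the test.

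Of 27 carrier and acute phase genes 10 rose and 4 fell (median 0.41), with 16 called higher under the replicate block of 6 libraries and 2 lower with the length offset. Called genes made up 51.9% of the list, beside 35.4% of all genes. HP, haptoglobin, rose from 263, 250 and 238 CPM to 1074, 1118 and 1036 CPM (2.10 ± 0.19), TF, transferrin, from 6873, 7494 and 8334 TPM to 14850, 15980 and 14520 TPM (1.07 ± 0.15), and HPX, haemopexin, by 1.96 ± 0.17. ITIH1 (2.25 ± 0.15) and ITIH4 (2.78 ± 0.35), heavy chains of the inter-alpha-trypsin inhibitor family, rose, whereas TTR, the thyroid hormone carrier (-0.90 ± 0.12), and SAA4 (-1.08) fell. ALB took 3.19%, 3.34% and 3.44% of TPM with DMSO and 4.56% to 4.61% with sorafenib, with no overlap, but its log2 fold change of 0.41 ± 0.19 did not pass the test (edgeR adjusted p = 0.105). It did so in 5 of the 14 alternatives. AFP, the fetal counterpart of albumin, had -0.07 ± 0.15 (edgeR adjusted p = 0.764). Its share of TPM was 2.25% to 2.37% with DMSO and 1.98% to 2.08% with sorafenib, also with no overlap.

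Apolipoproteins diverged. Of 20 genes of lipoprotein assembly 10 rose and 3 fell (median 0.44). APOC3 (2.45 ± 0.10), APOA5 (2.02 ± 0.16) and APOA1 (1.24 ± 0.15), neighbours on chromosome 11, rose together, with APOA1 at 2531, 2650 and 2751 TPM against 6206, 5732 and 6105 TPM. APOA2, the second protein of HDL, fell from 14730, 11280 and 12520 TPM to 5416, 5117 and 5716 TPM (-1.23 ± 0.17, edgeR adjusted p = 1.12e-04), the largest loss of TPM among called genes. In sum, the 12 apolipoprotein genes took 2.48% to 2.72% of TPM with DMSO and 2.18% to 2.32% with sorafenib, but their shares of estimated counts overlapped between treatments.

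The second largest loss was LYZ, lysozyme, a secreted antibacterial enzyme. It stood at 4128, 4787 and 5114 TPM with DMSO and at 949, 1090 and 1118 TPM with sorafenib (-2.17 ± 0.14, edgeR adjusted p = 2.93e-07). LYZ is also a marker of blood cells. Among the other markers of that list, the leukocyte gene PTPRC was at 0 in all 6 libraries. CD68 stood at 10.9 to 20.7 TPM and CD14 at 0.770 to 3.21 TPM. Which cells the LYZ RNA came from was not tested. SELENOP, the selenium carrier (-0.97 ± 0.14), and TFPI, the inhibitor of coagulation by tissue factor (-1.29 ± 0.15), fell in the same set. The rule for the 10 largest gains and losses of TPM among called genes was added after values had been seen.

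**Figure D5:**
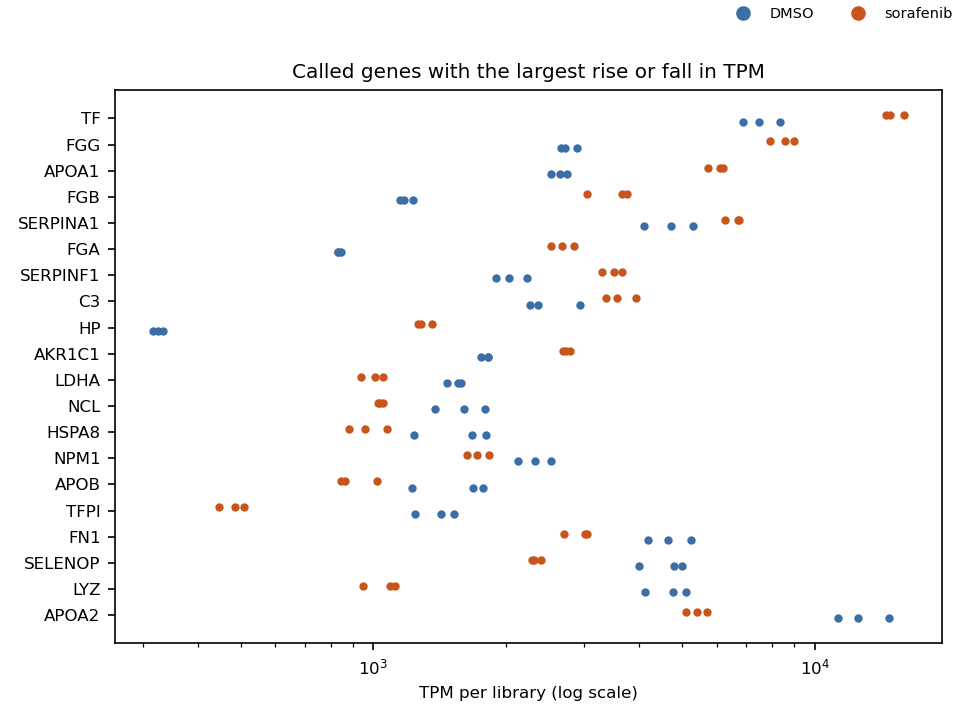
TPM on a log scale in each wild-type library (points, n = 3 a group; DMSO in blue, sorafenib in orange) for the 10 called genes with the largest gain and the 10 with the largest loss of mean TPM. TF gained the most and APOA2 lost the most, and the treatments do not overlap for any gene drawn.

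Of 31 glycolysis and hypoxia genes 11 fell and 6 rose (median -0.28), so 54.8% were called, beside 35.4% of all genes. SLC2A1, the glucose importer GLUT1, fell from 540, 754 and 875 CPM to 115, 129 and 126 CPM (-2.55 ± 0.21), and HK2, a hexokinase of growing cells, from 126, 136 and 141 CPM to 25.3, 19.2 and 20.8 CPM (-2.62 ± 0.16). LDHA (-0.62), the lactate exporter SLC16A3 (-0.69) and HIF1A (-0.44) fell. The liver forms SLC2A2 (0.79) and PKLR (1.01) rose, and NDRG1, which is induced by hypoxia and other stresses, rose from 31.7, 23.8 and 26.1 CPM to 134, 129 and 141 CPM (2.31 ± 0.13). Of 15 gluconeogenesis and glycogen genes 9 rose and 3 fell (5 rose with the length offset). PCK1, the controlling enzyme, rose from 4.66, 3.93 and 4.42 CPM to 16.9, 13.9 and 15.8 CPM (1.84 ± 0.17), and IGFBP1, which shares insulin control with it, fell from 210, 157 and 212 CPM to 35.2, 29.4 and 35.7 CPM (-2.53 ± 0.19). IRS1, an insulin receptor substrate, rose by 1.19 ± 0.10.

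Of 27 urea cycle and amino acid genes 15 rose and 7 fell (median 0.55; 4 fell with the length offset). GNMT, which uses methyl groups to modify glycine, rose from 1.61, 1.45 and 1.76 CPM to 9.97, 10.4 and 10.97 CPM (2.69 ± 0.14). BHMT (1.65 ± 0.17), OTC (1.36), MAT1A (0.91) and CPS1 (0.80) rose. GLUL, which makes glutamine, rose from 383, 381 and 374 CPM to 790, 751 and 763 CPM (1.02 ± 0.08). Few respiratory chain genes were called. None of the 13 mitochondrially encoded genes was called (0.03 to 0.36; 0 unadjusted in edgeR and 0 by DESeq2). All 13 had a positive sign, and 4 were called higher with the replicate block of 6 libraries and 3 with that of all 12. Of 41 nuclear-encoded subunits 6 were called higher and CYCS, cytochrome c, lower (-0.79 ± 0.15), and none of the 6 kept the call under the length offset or under library totals alone. With DMSO replicate 2 or sorafenib replicate 3 left out 1 was called higher, and 3 with DMSO replicate 3 or sorafenib replicate 1 or 2 left out.

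Lists of other signalling pathways held single large changes. The shares called were 33.3% for NF-kB targets, 45.5% for interferon-stimulated genes, 40% for Notch and 57.1% for WNT genes, beside 35.4% of all genes. Among NF-kB targets 4 of 18 fell (2 with the length offset) and 2 rose: the chemokine CCL20 fell from 199, 157 and 149 CPM to 13.3, 8.86 and 12.9 CPM (-3.84 ± 0.17), ICAM1 by 1.91 ± 0.17 on the log2 scale, and the inhibitor NFKBIA rose by 0.70 ± 0.10. CCR6, the receptor of CCL20 and not on the list, fell as well, from 15.9, 15.6 and 13.3 CPM to 1.79, 2.11 and 1.17 CPM (-3.14 ± 0.29). Of 22 interferon-stimulated genes 8 rose (5 without DMSO replicate 2, sorafenib replicate 2 or sorafenib replicate 3) and 2 fell (4 in the fits of the 6 wild-type libraries), with IFIT1 at 1.61 ± 0.16 and OAS1 at -1.09 ± 0.21. In the Notch list 4 of 15 fell (2 without DMSO replicate 3 or with the length offset) and 2 rose. HEY1 fell from 9.52, 10.3 and 10.2 CPM to 0.861, 0.814 and 0.963 CPM (-3.50 ± 0.22). The Notch ligand gene JAG1 fell by 0.83 on the log2 scale, while NOTCH1 rose (1.96 ± 0.35). Of 21 WNT genes 6 rose (3 with the length offset) and 6 fell (3 without DMSO replicate 3): LGR5 fell from 109, 122 and 120 CPM to 35.6, 32.5 and 28.6 CPM (-1.86 ± 0.12), and TCF7 (0.81), RNF43 (0.53) and GLUL, a target in liver, rose.

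FST, follistatin, which binds activin, fell from 260, 279 and 286 CPM to 31.0, 32.5 and 33.4 CPM (-3.09 ± 0.11), the largest change among 21 genes of TGF-beta, activin and BMP signalling, of which 6 fell and 3 rose. BMP4 (-0.98 ± 0.10) fell, and 42.9% of that list was called beside 35.4% of all genes. Of 18 YAP targets 6 fell and 5 rose (2 with the length offset), so 61.1% were called. CCN2 fell from 360, 389 and 466 CPM to 140, 133 and 132 CPM (-1.58 ± 0.15) and ANKRD1 by 1.45 ± 0.24 on the log2 scale. Of 24 adhesion and matrix genes 8 fell and 4 rose (50% called, beside 35.4% of all genes). CEMIP, which degrades hyaluronan, fell from 32.3, 40.5 and 58.7 CPM to 4.09, 4.83 and 4.27 CPM (-3.32 ± 0.22), and COL18A1 rose (0.86). LOX, which crosslinks collagen and was not on the list, fell from 75.4, 79.0 and 105 CPM to 11.4, 10.7 and 17.4 CPM (-2.71 ± 0.20). Of the HOX genes 5 were tested. HOXD1 fell from 39.7, 40.5 and 41.9 CPM to 2.80, 2.30 and 2.68 CPM (-3.96 ± 0.15), and its neighbours HOXD3 and HOXD4 were called lower at no more than 1.64 CPM in any library, while HOXA5 (0.10) did not pass the test.

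Large changes outside the lists were named by size. PPP2R2C, which encodes a B-type subunit of the phosphatase PP2A, fell from 7.74, 7.12 and 8.21 CPM to 0.466, 0.383 and 0.502 CPM (-4.07 ± 0.24), and the amino acid importer SLC6A14 fell by 2.72 ± 0.23 on the log2 scale. ETNK2, a kinase of phospholipid synthesis, rose from 24.5, 21.2 and 22.3 CPM to 114, 113 and 116 CPM (2.33 ± 0.09). MAB21L4 (2.79 ± 0.13), SLC38A4, an amino acid carrier of liver (2.49 ± 0.20), SLC6A12, a betaine carrier (2.77 ± 0.23), and IGFALS, which stabilises IGFs in plasma (2.77 ± 0.32), rose. PLEKHM1 was at 0 in every DMSO library and at 8.18, 13.6 and 11.3 CPM with sorafenib. Whether its reads were assigned to the right gene was not resolved, so this is a value as listed and not a measured change.

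Transcript usage, the share of a gene's output held by each of its transcripts, was tested in 8343 genes with at least 2 transcripts above a 10% share of TPM. The test itself used rounded estimated transcript counts, whereas the shares printed below are of TPM. Changed usage was called in 60 genes (0.719%, edgeR differential usage test, adjusted p under 0.05), 34 of which were also called for their level. The number depended on the method: 16 with the Simes method over transcripts, 27 with a replicate block, 102 with a minimum share of 5% and 92 without DMSO replicate 3. Of the 8 genes with the largest shift among those with at least 5 TPM in both treatments and no overlap, SFXN4, a mitochondrial carrier-like protein, was the only one called under all 10 alternatives of this test (edgeR adjusted p = 0.00159, and up to 0.0218). NR2F2, outside these 8 and singled out after its values were seen, was also called under all 10. Its retained-intron transcript SFXN4-208 held 25.3%, 35.5% and 18.5% of TPM with DMSO and was at 0 in the sorafenib libraries, and its coding transcript SFXN4-201 held 57.7%, 30.4% and 60.3% against 80.35%, 73.9% and 87.1%. CTHRC1 showed a like pattern, with CTHRC1-203 at 34.0%, 51.3% and 55.8% with DMSO and at 0 with sorafenib, but lost its call under 2 alternatives. An exact 0 in such a table can be a failed division of reads between similar transcripts.

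The response of ARID1B-KO cells was compared gene by gene through the interaction term, which called 107 of 12821 genes (0.835%), 77 of them also called in wild type. The comparisons share no libraries between genotypes. HEY1 fell less in ARID1B-KO (-1.38) than in wild type, a difference of 2.12 ± 0.32 (edgeR adjusted p = 0.0182). SAT1 had -0.21 in ARID1B-KO, a difference of 1.19 ± 0.17 (edgeR adjusted p = 0.0136), and ETV4 fell further in ARID1B-KO (-4.30), a difference of -0.99 ± 0.14 (adjusted p = 0.0136). CEBPA had 0.22 in ARID1B-KO, a difference of -0.68 ± 0.10 (edgeR adjusted p = 0.0182). The number of calls ranged from 2 with the length offset to 578 with DESeq2 over alternatives added after the data were seen, and none of the 14 named genes with a called difference kept it in all 18 alternatives.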

How the data were processed

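Poly(A) RNA of 12 HepG2 samples was sequenced as paired 75-base reads, and the 6 wild-type libraries were compared here. The authors quantified transcripts with Salmon on GRCh38, per the submitters' processing notes, and the deposited estimated counts and TPM values are per transcript. The design text names Ensembl 109, and the notes also name DESeq2 1.46.0.

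Estimated counts were summed over transcripts of 1 gene (GENCODE 44; 93.3% of 177456 transcripts matched, and unmatched ones held 3.01% to 3.2% of counts) and rounded. Of counts above 0, 10.2% were whole within 1e-06. edgeR 4.0.16 (R 4.3.3) fitted all 4 groups together with TMM scaling, a filter on low counts and the quasi-likelihood test, without a replicate block, and p-values were adjusted over all genes. CPM values are per TMM library size. Each ± value is an SE derived from the log2 fold change and the F statistic of the quasi-likelihood test. Same-numbered libraries deviated together weakly (correlations 0.084, 0.078 and 0.05, beside -0.079 to 0.008 between different numbers). A replicate block changed the common coefficient of biological variation of the 6 libraries from 0.136 to 0.121. The reported fit did not take the numbers as pairs, which leaves a pairing undecided. Alternatives were other scalings, no filter, a length offset, 6 libraries alone, replicate blocks, DESeq2 1.42.0 and each library left out. Transcript usage was tested with edgeR's differential usage test on rounded estimated transcript counts. Scripts were tested on simulated data. Promoters came from the RefSeq table.

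The lists and their members were chosen with earlier results of these data known. Named genes are the 20 largest rises and 20 largest falls with a mean of at least 5 CPM and no overlap, up to 4 called members of each list by size, a short fixed set, and 8 genes for usage. Further list members, called or not, were named as examples after their values were seen. Some members of the lists are counted but not reported here by name.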

Additional observations from a re-analysis of the deposited data

Results flagged for a closer look

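For 14 of the genes examined, the response to sorafenib differed between ARID1B-KO and wild-type cells in the interaction test (edgeR, adjusted p under 0.05 over all genes). Each difference below is the log2 fold change in ARID1B-KO minus that in wild type. The alternatives to this test were added after the data were seen, and each gene is given with the number of the 18 in which its difference was called.

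Of these 14 genes, 7 that fell in wild type fell further in ARID1B-KO. They were named from different lists, except that ETV4 and ETV5 share that of ERK-driven transcription factors and early genes. The call itself chose them. The differences were -0.99 for ETV4 (called in 16 alternatives), -0.74 for ETV5 (9) and -0.57 for SPRED2 (4). They were -0.60 for the replication gene UHRF1 (5), -0.56 for the nucleolar helicase DDX21 (4), -0.57 for the chaperone FKBP4 (4) and -0.999 for the WNT target LGR5 (9). BMF, the pro-apoptotic gene that rose, rose further in ARID1B-KO, by 0.72 (6).

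The other responses, apart from SDHAP1, were smaller in ARID1B-KO. The difference was -0.68 for the liver factor CEBPA (12), -0.71 for HMOX1 (7) and -0.69 for the cholesterol enzyme HMGCS1 (4), all of which rose in wild type. It was 2.12 for HEY1 (13) and 1.19 for the polyamine enzyme SAT1 (16), both of which fell in wild type. SDHAP1, a pseudogene whose reads may belong to its parent gene, had -0.78 in wild type and 0.74 in ARID1B-KO, a difference of 1.52 (6). ETV4 and SAT1 were the genes called most often, with edgeR adjusted p up to 0.173 and 0.0578 over the alternatives.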

How the results depend on the processing

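With an offset for transcript length, 1397 genes were called higher and 1470 lower, of which 2708 were shared with the 4543 reported calls and 0 had the opposite sign. The cause was not tested. Under library totals alone 1712 were higher and 2331 lower (42.3% of calls higher, beside 49.3%), with the median of all genes at -0.06. A replicate block of the 6 wild-type libraries gave 2577 and 2702, and of all 12 libraries 2492 and 2662. Each library correlated best with its own number, a hint from the data and not the design. Leaving out 1 library gave 1802 to 1940 higher and 1777 to 2000 lower. Of 224 named genes, 27 lost their call with the length offset, 7 to 17 with 1 library left out and 0 under DESeq2.

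Genes called for transcript usage, 60 as reported, numbered 102 at a minimum share of 0.05, 27 with the replicate block, 16 by Simes and 43 to 92 with 1 library left out. Differences between genotypes, 107 as reported, numbered 30 with library totals alone, 2 with the length offset, 321 with a replicate block, 578 by DESeq2 and 5 to 138 with 1 library left out (fewest without wild-type sorafenib replicate 2). The causes were not tested. Of 51 list counts of 5 or more, 33 moved by no more than 1.5 times under any alternative, and 13 of the other 18 moved with the length offset. Depth limits genes below the filter, which were not tested.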
